A study of Mus musculus with 2 samples.

Results

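The cells described here were taken as midgut and hindgut endoderm of mouse chimeric embryos by the UMIs of a few genes, and are a set of 333 single cells among the 18233 barcodes of 2 libraries, of which 139 of 8981 were tdTom+ and 194 of 9252 were tdTom-. Chimeras were made by injecting a TdTomato-expressing male embryonic stem cell line into wildtype C57BL/6 blastocysts. The stem cells were a single clone with a 38 bp frameshift mutation in exon 4 of Gata1, the erythroid transcription factor, so by the sort tdTom+ cells are Gata1- and tdTom- cells are wildtype host cells of the same embryos. The sort could not be checked by the reporter, as tomato-td is listed at 0 in all cells of both libraries, and Xist was read in 81 tdTom+ cells outside the members although the clone is male. Both libraries came from 1 pool of 6 embryos that was sorted by TdTomato after dead cells were excluded with DAPI, and the titles and the protocol give E8.5 for both, although the age field of the tdTom- sample reads E8.6. Gata1 genotype, sex and the genetic background of stem cells and host cannot be told apart. There is 1 library per fraction and no replicate, so no test was run, and each interval given is a 95% exact interval that covers counting error only. Each library was made with the 10x Chromium v3 kit, and levels are CPM, the spliced UMIs of a gene per 1e+06 spliced UMIs, summed over the cells named.

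Endoderm lines the early gut tube, which is read from front to back as foregut, midgut and hindgut. The forkhead factors Foxa1, Foxa2 and Foxa3 and the HMG box factor Sox17 are textbook regulators of endoderm. Cdx2 and the posterior Hox genes mark the hind part of the tube, and Sox2 and Nkx2 family genes mark the fore part. Hedgehog ligands made by the gut epithelium act on the surrounding mesoderm, whereas retinoic acid and FGF signals help set position along the axis.

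Members were chosen by measured UMIs. A cell was taken when it had at least 5 spliced UMIs of Epcam, an epithelial adhesion molecule, no UMI of Pax9, a factor of the pharyngeal endoderm, and at least 5 UMIs in the sum of Apela, Cpn1 and Gpx2. Cells with 2% or more of their UMIs in Apoa1, Ttr, Rbp4 and Afp, or 0.5% or more in Hba-x, Hbb-bh1 and Hbb-y, were left out. In the tdTom+ library 1133 cells passed the Epcam limit, 955 also lacked Pax9, 146 also passed the limit on the sum, 143 passed the visceral endoderm limit and 139 passed the globin limit. In the tdTom- library these numbers were 1191, 992, 211, 198 and 194. Members made up 1.55% of tdTom+ barcodes (1.30 to 1.82) and 2.10% of tdTom- barcodes (1.81 to 2.41). The tdTom+ cells were 41.7% of the members (36.4 to 47.2) and 49.3% of all barcodes. The rule cut through a continuum: 7 tdTom+ and 8 tdTom- members had exactly 5 Epcam UMIs and 5 and 7 cells outside had 4, whereas 10 and 14 members had a sum of exactly 5 for Apela, Cpn1 and Gpx2 and 6 and 12 cells outside had 4. A further 42 cells of each library were outside only because of 1 Pax9 UMI, and 15 of the tdTom+ and 11 of the tdTom- cells among them held a Nepn UMI.

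Members of both fractions were deeply read and alike in quality. The median spliced depth was 15668 UMIs per tdTom+ cell (6723 to 46991) and 15269 per tdTom- cell (5028 to 53736), with 2379086 and 3213531 UMIs in all. The median number of genes was 4512 and 4566, the median mitochondrial share 2.51% and 2.64%, and the unspliced share of UMIs 14.8% and 15%. Scrublet called 4 tdTom+ and 13 tdTom- members doublets, and they were kept. The libraries shared 18 barcodes, of which 1 was that of a member, and no barcode was a member in both. For shares of cells with a UMI, 399 tdTom+ and 268 tdTom- cardiomyocyte-like cells, taken by their Myl7 and Tnnt2 UMIs after the data had been seen, served as the background, at a median depth of 17069 and 16010 UMIs. Shares were also taken after each cell was thinned to 10000 UMIs, which kept 127 tdTom+ and 161 tdTom- members.

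The genes that chose the cells are given as a description. Epcam stood at 921 CPM in the tdTom+ members, 901 CPM in the tdTom- members, and 83.9 and 90.1 CPM in all other cells. Apela, a secreted ligand of the apelin receptor, stood at 568 and 583 CPM against 15.2 and 17.6 CPM elsewhere. Cpn1, a subunit of carboxypeptidase N, reached 145 and 191 CPM, and Gpx2, a gastrointestinal glutathione peroxidase, reached 108 and 141 CPM. Per cell, Epcam ran from 5 to 47 UMIs in the tdTom+ and from 5 to 39 in the tdTom- members, with medians of 15 and 13. Apela had a median of 8 UMIs per cell in both fractions and a highest cell of 34 and 44 UMIs. Of the 12 genes of the rule 9 had enough UMIs, and the 3 called between the fractions were the globins, which are given with the erythroid genes. Rbp4, a retinol carrier on the visceral endoderm side of the rule, had 242 and 651 UMIs (log2 fold -0.99), and Ttr, a thyroxine carrier, 1174 and 1879 (-0.24). All 5 marker genes given for these cells, which are these 4 and Nepn, were at least 2-fold above all other cells in both libraries.

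Endoderm regulators that the rule did not name are given as a description, since the rule picked epithelial cells. A gene was assessed when it had at least 100 spliced UMIs over all members, and called when it differed by at least 2-fold with an interval that excluded 0. That minimum was on members alone, so genes low in members were left out. Counts of genes above the rest are therefore no test of the endoderm label. Of 5983 genes assessed, 340 (5.68%) were called higher in members than in all other cells of the same library in both libraries, and 4 of the 5 endoderm transcription factors assessed, of 13 listed, were among them. Foxa1 stood at 84.1 CPM in the tdTom+ and 62.9 CPM in the tdTom- members against 2.25 and 2.66 CPM in the rest. Foxa2 stood at 57.2 and 60.4 CPM, Foxa3 at 24.0 and 36.1 CPM, and Sox17 at 127 and 111 CPM. A Sox17 UMI was found in 46.8% and 52.1% of members and in 1.75% and 1.49% of cardiomyocyte-like cells. Gata6, a zinc finger factor of endoderm and heart, stood at 89.1 and 80.6 CPM and was the factor that was not called above the rest. Hnf4a, a regulator of liver, visceral endoderm and later gut, had 3 and 7 UMIs over all members.

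Epithelial genes went with the endoderm factors. All 14 epithelial genes assessed, of 16 listed, were at least 2-fold above the rest in both libraries, against 5.68% of assessed genes. As the rule asked for Epcam UMIs and the minimum was on members alone, this is a description and no test. None of the 14 was called between the fractions, where 0.284% and 1.13% of all assessed genes were called higher and lower. Krt18 and Krt8, the paired keratins of simple epithelia, stood at 2377 and 1209 CPM in tdTom+ and at 1902 and 1082 CPM in tdTom- members. The tight junction claudins Cldn6 and Cldn7 stood at 306 and 284 CPM and at 344 and 304 CPM. Cdh1, the epithelial cadherin, stood at 50.4 and 48.9 CPM. Krt19 differed most in this group, with 311 CPM for tdTom+ and 485 CPM for tdTom- cells (log2 fold -0.64).

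Outside the rule's own genes, the genes that stood furthest above all other cells were Nepn, Ihh, Upk3a, Foxa3, Foxa1, Tmprss2, Cpm, Dio3, Pyy, Tmem27, Rnase4, Dpp4, Clic6, AC139238.1, Spink1, Vtn, Crb3, Rcan2, Shh and Sox17, ordered by the lower of the 2 libraries' folds. Nepn, which encodes the leucine-rich proteoglycan nephrocan, led with a log2 fold over the rest of 6.94 in the tdTom+ and 6.40 in the tdTom- library. Its level was 402 and 303 CPM in members and 3.26 and 3.59 CPM elsewhere. Ihh, a hedgehog ligand, followed with log2 folds of 6.11 and 5.35. Membrane peptidases were on the list, with Cpm at 156 and 171 CPM, Dpp4 at 59.3 and 80.3 CPM and the serine protease Tmprss2 at 51.7 and 58.2 CPM. Spink1, a secreted trypsin inhibitor, was abundant at 978 and 810 CPM against 25.1 and 59.6 CPM in the rest. These folds are against all other cells pooled, and the Epcam-positive cells most like members held many of the same genes. In the 175 tdTom+ and 186 tdTom- Epcam-positive cells with Pax9, Nepn stood at 118 and 107 CPM, Vtn at 24.3 and 25.4 CPM against 22.7 and 24.9 CPM in members, and Shh at 46.3 and 27.5 CPM. In the 3 tdTom+ and 39 tdTom- Epcam-positive cells high in visceral endoderm genes, Spink1 stood at 3558 and 4616 CPM, Dpp4 at 176 and 288 CPM, Tmprss2 at 230 and 128 CPM and Ihh at 67.6 and 44.9 CPM. Spink1, Dpp4 and Tmprss2 were thus higher in those cells than in members, whereas Nepn had no UMI in the tdTom+ ones and 2.93 CPM in the tdTom- ones. The tdTom+ cells were 7.14% of the cells high in visceral endoderm genes, against 49.3% of all barcodes. The part of this uneven share in the differences between the fractions was not tested.

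The Nepn promoter is shown because Nepn leads the list and is read in a minority of the cells. The sequence is the RefSeq GRCm38.p6 window of 250 bases before to 50 bases after the start that RefSeq gives, at chr10:52391358-52391657 on the plus strand, inside the annotated span of the gene. Capitals mark, on either strand, the forkhead motif TGTTTAC, the GATA motif AGATAA and the Cdx motif TTTATGG, which do not overlap here.
Nepn: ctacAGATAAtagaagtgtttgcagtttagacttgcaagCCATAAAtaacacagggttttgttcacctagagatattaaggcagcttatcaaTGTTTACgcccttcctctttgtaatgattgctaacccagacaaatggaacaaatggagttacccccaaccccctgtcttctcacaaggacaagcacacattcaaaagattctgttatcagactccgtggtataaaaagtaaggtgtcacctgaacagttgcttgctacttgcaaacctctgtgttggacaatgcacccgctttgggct
The window held 1 match of each of the 3 motifs. Of 32851 promoter windows of this length, 3.65% held TGTTTAC, 11.2% held AGATAA and 2.75% held TTTATGG. The other Cdx motif searched, TTTATTG, was in 4.60% of all windows and not in this window. Of the 20 leading genes 14 had a window, and of these 2 held the forkhead motif, 3 the GATA motif, 1 the Cdx motif TTTATGG and 0 the other Cdx motif. A match is a description of letters and shows no binding.

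Members differed among themselves in genes of position along the gut tube. A Nepn UMI was read in 32.4% of tdTom+ and 35.1% of tdTom- members, against 0.501% of tdTom+ cardiomyocyte-like cells and 0 of 268 tdTom- ones, and in 29.1% and 30.4% of members after thinning. Where Nepn was read it was often strong, with 25 and 27 cells at 10 UMIs or more and a highest cell of 112 and 99 UMIs. Cdx2, the homeobox factor of the posterior gut, was read in 46.8% of tdTom+ and 70.1% of tdTom- members, against 4.01% and 8.58% of cardiomyocyte-like cells. Thinning left the Cdx2 shares at 41.7% and 67.1%. The fractions were near each other for Nepn at 1 UMI, but 38 of 139 tdTom+ and 39 of 194 tdTom- members held at least 3 Nepn UMIs, and summed Nepn had a log2 fold of 0.41 (0.28 to 0.54) between them. Without the host cells that held a Rhox5 or Trap1a UMI, that log2 fold was 0.14 (0.01 to 0.27). A UMI of any Hox gene of paralogue groups 9 to 13 was read in 33.8% and 59.8% of members, against 7.02% and 11.6% in the background, and in 31.5% and 55.9% after thinning. In Epcam-positive cells with Pax9, group 9 stood at 93.3 and 92.2 CPM, against 92.1 and 185 CPM in members. In tdTom+ cells it was thus no higher in members. Of 13 Hox genes assessed, 0 were called above all other cells in both libraries. T, the posterior factor brachyury, was read in 25.9% and 43.3% of members, against 1.00% and 3.36% in the background.

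**Figure D1:**
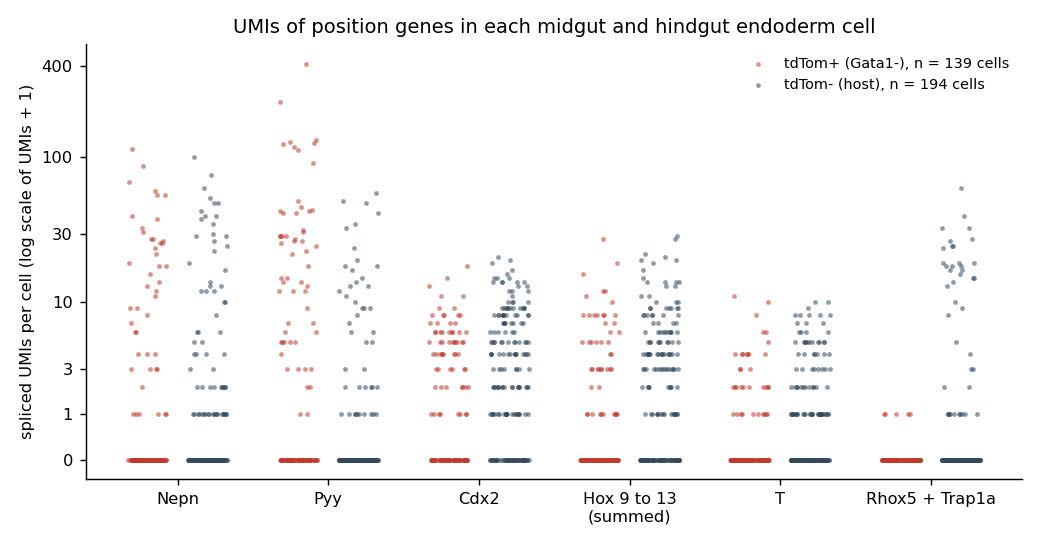
Spliced UMIs per cell (log scale of UMIs plus 1) of Nepn, Pyy, Cdx2, the summed Hox 9 to 13 genes, T and the sum of Rhox5 and Trap1a in the 139 tdTom+ and 194 tdTom- members, 1 point per cell. Each was at 0 in many cells of both fractions, and the highest cells reached 112 UMIs for Nepn, 414 for Pyy, 21 for Cdx2 and 29 for the Hox genes.

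The posterior genes went together in the same cells. Among Cdx2-positive members 66.2% of tdTom+ and 83.1% of tdTom- cells held a Hox 9 to 13 UMI, against 5.41% and 5.17% of Cdx2-negative members, and T was in 52.3% and 59.6% of the former and 2.70% and 5.17% of the latter. After thinning, the Hox shares were 66.0% and 77.8% with Cdx2 and 6.76% and 11.3% without it. A Cdx2 UMI was in 66.7% and 79.4% of Nepn-positive and 37.2% and 65.1% of Nepn-negative cells, or 51.4% and 75.5% against 37.8% and 63.4% after thinning. A cell without a UMI may still make the transcript, so these shares are of cells with a UMI.

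Members were sorted by these UMIs into 4 classes, chosen after the values had been seen. The class with Cdx2 and a Hox 9 to 13 gene held 43 tdTom+ and 113 tdTom- cells, which is 30.9% (23.4 to 39.3) and 58.2% (51.0 to 65.3), or 27.6% and 52.2% after thinning. The class with Cdx2 and no such Hox UMI held 22 and 23 cells, which is 15.8% and 11.9%, or 14.2% and 14.9% after thinning, so its direction turned. The class with Nepn and no Cdx2 held 15 and 14 cells, which is 10.8% and 7.22%, or 14.2% and 7.45% after thinning. The class with neither Cdx2 nor Nepn held 59 and 44 cells, which is 42.4% (34.1 to 51.1) and 22.7% (17 to 29.2), or 44.1% and 25.5% after thinning. In these libraries the share of the posterior class was lower in tdTom+ members and that of the class without Cdx2 and Nepn was higher. The intervals count cells of 1 library each and are no test of the fractions, since how far such shares vary between libraries is not known.

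**Figure D2:**
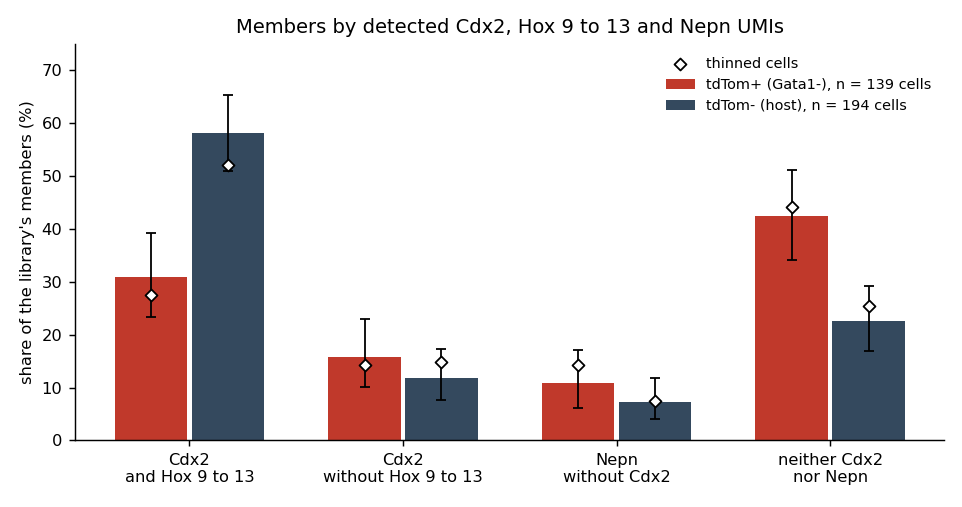
Share of members (percent) in each of the 4 classes, with 95% exact binomial intervals, for tdTom+ and tdTom- cells. The class with Cdx2 and Hox 9 to 13 took 30.9% of tdTom+ and 58.2% of tdTom- members, and the class with neither Cdx2 nor Nepn took 42.4% and 22.7%.

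Genes that did not define the classes followed them, in both fractions. In the class with Cdx2 and Hox 9 to 13, T stood at 141 CPM in the tdTom+ and 132 CPM in the tdTom- cells. Fgf8 and Fgf17, FGF ligands of the tail end, stood there at 350 and 105 CPM in tdTom+ and at 376 and 93.8 CPM in tdTom- cells, Cyp26a1, which breaks down retinoic acid, at 213 and 182 CPM, and the caudal factor Cdx4 at 387 and 368 CPM. This class was the low class for Spink1, at 147 and 291 CPM, where each of the other classes held 1308 CPM or more in either fraction. The class with neither Cdx2 nor Nepn led for Pyy, a gut peptide hormone, at 1795 and 687 CPM, and held Nkx2-3, a homeobox factor of pharyngeal endoderm and gut, at 157 and 66.8 CPM and Isl1, a LIM homeobox factor, at 125 and 83.1 CPM. Pyy, Nkx2-3 and Isl1 are all on the foregut list, so that class held foregut list genes without a Pax9 UMI. In Epcam-positive cells with Pax9, Pyy stood at 389 and 151 CPM, Nkx2-3 at 130 and 157 CPM and Isl1 at 125 and 129 CPM. The name midgut and hindgut endoderm is therefore not borne out by Pyy, Nkx2-3 and Isl1 for the class with neither Cdx2 nor Nepn. That class stays among the members by the rule.

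**Figure D3:**
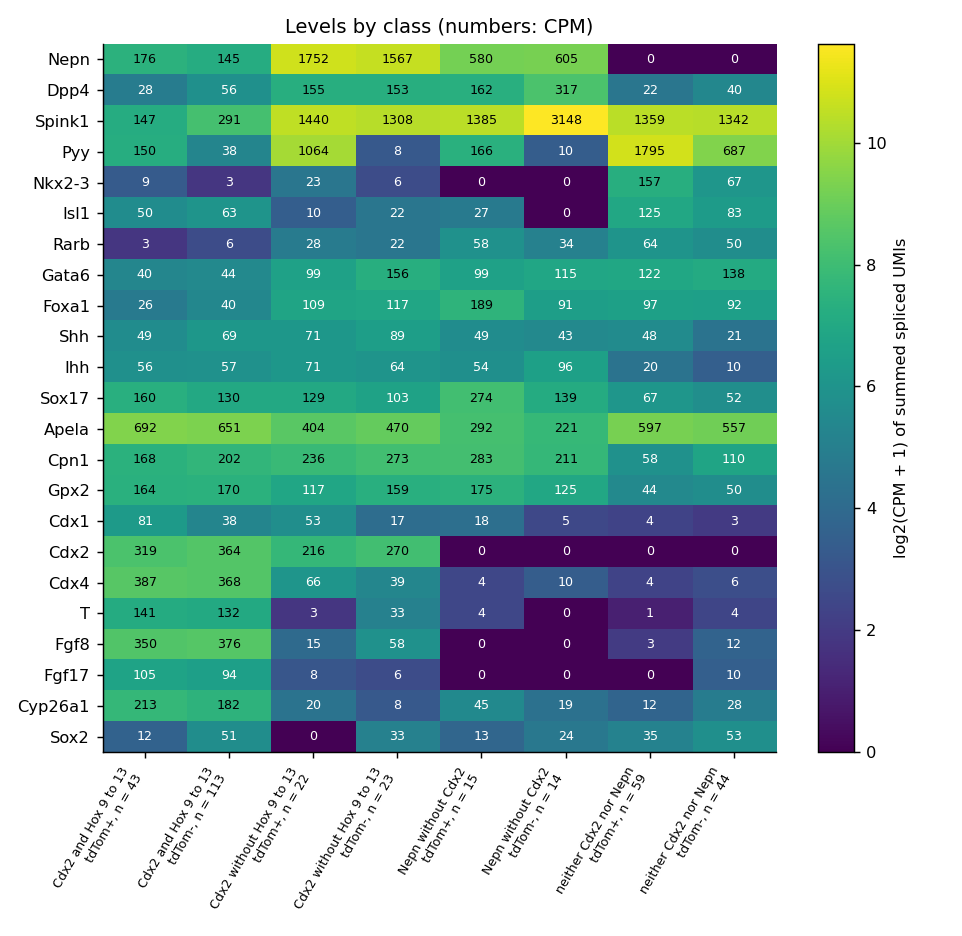
Heat map of 23 genes (rows) in each of the 4 classes by fraction (columns), with colour giving log2(CPM + 1) of summed UMIs and the number in each cell giving CPM. T, Fgf8 and Cyp26a1 were high in the class with Cdx2 and Hox 9 to 13, and Pyy stood at 1795 CPM for tdTom+ and 687 CPM for tdTom- cells with neither Cdx2 nor Nepn.

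Nepn-rich cells were also set against Nepn-negative cells within each fraction, as a description. There were 38 tdTom+ cells with at least 3 Nepn UMIs and 94 with none, and 39 and 126 tdTom- cells. In tdTom+ cells 35 of 3472 genes (1.01%) were called higher and 47 (1.35%) lower with Nepn, and in tdTom- cells 34 of 4085 (0.832%) were called higher and 75 (1.84%) lower, Nepn itself being among the higher genes by construction. Dpp4 stood at 140 CPM with Nepn and 22.5 CPM without it in tdTom+ cells, and at 143 and 37.2 CPM in tdTom- cells. Myl3, a myosin light chain, stood at 163 and 32.9 CPM and at 194 and 47.5 CPM. The basement membrane collagens Col4a1 and Col4a2 were called higher in both fractions as well. Pyy was far lower with Nepn, at 12.7 against 1401 CPM in tdTom+ cells and 16.0 against 247 CPM in tdTom- cells (log2 folds -6.79 and -3.95). Nkx2-3 had no UMI in Nepn-rich tdTom+ cells and stood at 104 CPM in those without Nepn. Pyy was thus mostly read in cells other than the Nepn-rich ones in both fractions.

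Between the fractions, 17 of 5992 genes assessed (0.284%) were called higher in tdTom+ members and 68 (1.13%) were called lower. The median log2 fold of all assessed genes was -0.02. The 10 genes furthest up were Pyy, Nkx2-3, Erdr1, Nnat, Impact, Usp29, Peg10, Eif2s3y, Peg3 and Vstm2b, and the 10 furthest down were Xist, Trap1a, Rhox5, Grb10, Phlda2, Cdkn1c, Hbb-y, Hba-x, 2610528A11Rik and Igf2r. The differences in all other cells were of like size for some of these genes and not for others. Erdr1 (log2 fold 1.87 in members and 1.49 in the rest), Impact (1.34 and 1.55), Usp29 (1.30 and 1.27), Peg10 (1.26 and 1.39), Peg3 (1.15 and 1.22) and Eif2s3y (1.24 and 1.00) had like values in both. Nnat, an imprinted neuronal gene, had a log2 fold of 1.43 in members and 0.66 in the rest. Vstm2b was higher in tdTom+ members (1.14) and not in the rest (-0.18). Xist, the X inactivation RNA, had 3 UMIs in tdTom+ and 1136 in tdTom- members (log2 fold -8.13, and -6.37 in the rest). The uncharacterised gene 2610528A11Rik had a log2 fold of -2.29 in members and -0.43 in the rest.

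Foregut list genes were higher in tdTom+ members for Pyy and Nkx2-3 and lower for Sox2. Of 13 such genes 5 had enough UMIs, 2 of them were called higher and 1 lower, against 0.284% and 1.13% of all assessed genes. Pyy was read at 2337 UMIs or 982 CPM in tdTom+ and at 543 UMIs or 169 CPM in tdTom- members (log2 fold 2.54, 2.40 to 2.68), against a log2 fold of 1.44 in all other cells. A Pyy UMI was found in 41.0% and 23.2% of members, against 14.3% and 8.96% of cardiomyocyte-like cells, and in 41.7% and 21.1% of members after thinning. The 2 highest tdTom+ cells held 646 of the 2337 UMIs, with 414 and 232, and without the 2 highest cells of each library the log2 fold was 2.40. Nkx2-3 stood at 71.5 and 16.2 CPM (log2 fold 2.14, 1.69 to 2.62), was read in 28.1% and 9.28% of members and in 1.5% and 0.373% of cardiomyocyte-like cells, and had a log2 fold of 0.28 in the rest. Sox2 stood at 19.3 and 47.6 CPM (log2 fold -1.30), close to its difference in the rest, which was -1.43. Over the alternatives run its log2 fold lay between -1.36 and -0.98, so the call did not hold in all of them. Genes of this list below 100 UMIs included Nkx2-5 with 48 and 26 UMIs and Foxe1, a thyroid and pharyngeal factor, with 14 and 3 UMIs, 9 of the 14 in 1 cell.

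Of the hindgut and Hox genes, 1 of 6 and 3 of 13 assessed were called lower in tdTom+ members, against 1.13% of all assessed genes, and the others did not pass the 2-fold limit. The hindgut list held 7 genes, and the called one was Fgf8, with 119 CPM in the tdTom+ and 240 CPM in the tdTom- members (log2 fold -1.02, and -0.36 in the rest). That call ended with median-ratio scaling and without the host cells that held a Rhox5 or Trap1a UMI, where the log2 fold was -0.40. Cdx2 stood at 140 and 254 CPM (-0.85, -1.04 to -0.67) with a log2 fold of 0.03 in the rest, Cdx4 at 140 and 232 CPM (-0.73), and T at 47.5 and 85.9 CPM (-0.85). Cdx1 went the other way, at 38.7 and 25.8 CPM (0.58, 0.14 to 1.03). Of 39 Hox genes 13 were assessed, none had a log2 fold above 0, 12 had intervals below 0, and 3 were called lower, with a median of -0.69. Of all 5992 assessed genes, 2717 had a log2 fold above 0 and 676 had an interval below 0. The called genes were Hoxa7 at 76.9 and 156 CPM (-1.02), Hoxb9 at 28.2 and 65.7 CPM (-1.22) and Hoxd9 at 18.9 and 40.8 CPM (-1.11), of which Hoxa7 fell just short of 2-fold with median-ratio scaling. By paralogue group, numbered from the anterior end of each cluster, the log2 fold was -0.54 for group 1, -0.40 for group 2, -0.50 for group 3, -0.60 for group 4, -0.33 for group 5, -0.79 for group 6, -0.95 for group 7, -0.76 for group 8, -1.01 for group 9 (-1.24 to -0.78) and -0.72 for group 10. Group 11 had 3 UMIs in tdTom+ and 15 in tdTom- members. Group 13, the last of each cluster, had 3 UMIs in tdTom+ and 25 in tdTom- members (-2.63, -5.0 to -0.91).

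**Figure D4:**
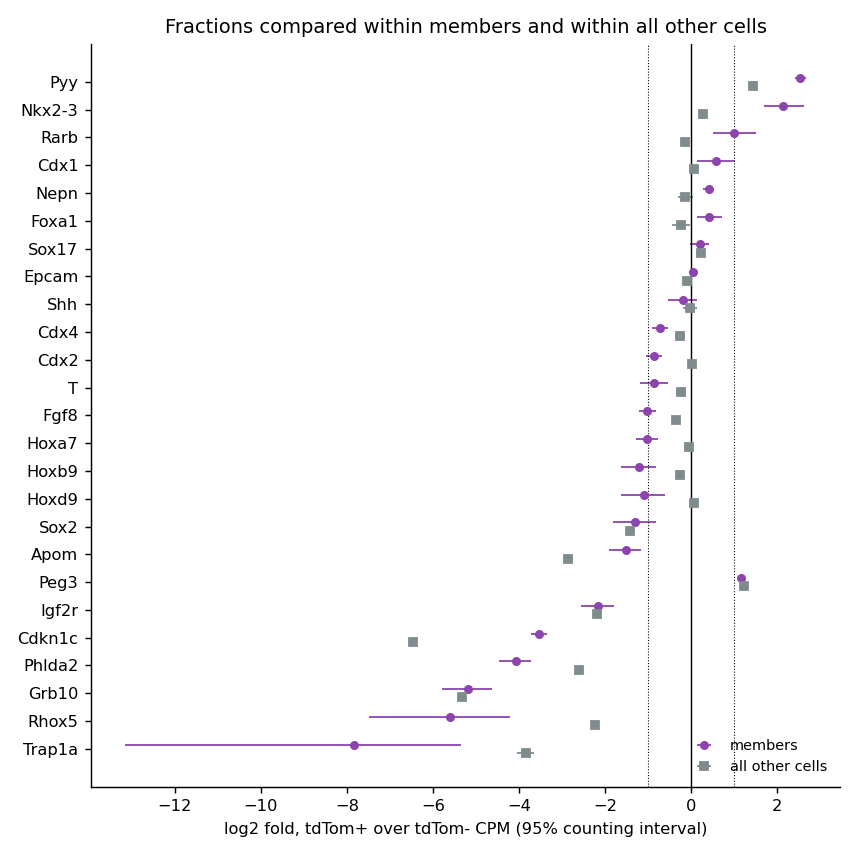
Log2 fold of tdTom+ over tdTom- for named genes in midgut and hindgut endoderm members and in all other cells, with 95% exact counting intervals and dotted lines at 2-fold. Pyy and Nkx2-3 sit above 0 at 2.54 and 2.14, and Cdx2, Fgf8 and the Hox genes sit below 0 in members, whereas Cdx2 is at 0.03 in all other cells.

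These summed levels follow both how many members belonged to a class and how much each held. Within the class with Cdx2 and Hox 9 to 13, T had a log2 fold of 0.09 (-0.24 to 0.42), Fgf8 of -0.10 (-0.31 to 0.10), and Cdx2, which defines the class, of -0.19 (-0.40 to 0.02). These class folds kept the host cells with Rhox5 or Trap1a UMIs, and Rhox5 was read in 24.8% of host cells of this class. Over all host members, T stood at 211 CPM with at least 3 such UMIs and 66.3 CPM with none, and Fgf8 at 701 and 157 CPM. Class folds without those host cells were not taken. Other genes differed within the same class. Cdx1 stood at 80.8 and 37.5 CPM (1.11, 0.60 to 1.61), Sox2 at 11.5 and 50.7 CPM (-2.14), Trh, a peptide hormone precursor, at 15.4 and 42.6 CPM (-1.47, -2.48 to -0.59), Spink1 at 147 and 291 CPM (-0.98, -1.28 to -0.69) and Dpp4 at 28.2 and 55.8 CPM (-0.98, -1.72 to -0.31). Single cells weighed on some of these, with 132 of the 573 host Spink1 UMIs and 16 of the 63 tdTom+ Cdx1 UMIs in 1 cell each. Over all members Trh had a log2 fold of -0.30, and without the host cells that held a Rhox5 or Trap1a UMI it was 0.22 (-0.28 to 0.72). In the class with Cdx2 and no Hox 9 to 13 UMI, T had 1 UMI in tdTom+ and 12 in tdTom- cells and Fgf8 6 and 21 (-1.94, -3.54 to -0.58). Within the class with neither Cdx2 nor Nepn, Pyy still had a log2 fold of 1.38 (1.24 to 1.54) and Nkx2-3 of 1.23 (0.74 to 1.74). The Pyy difference was therefore present within that class as well as in its share of cells. It was not particular to that class, as Pyy had a log2 fold of 1.44 in all other cells. In the Cdx2-positive classes Pyy rested on single tdTom+ cells, with 115 of 117 UMIs in 1 cell of the class with Hox 9 to 13 and 414 of 419 UMIs in 1 cell of the class without.

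Of 16 hedgehog genes 6 were assessed and none was called, which is near the share over all assessed genes (0.284% higher and 1.13% lower). The ligand Shh had 52.1 CPM in the tdTom+ and 59.4 CPM in the tdTom- members against 4.35 and 4.44 CPM in the rest, and Ihh at 43.7 and 50.7 CPM against 0.634 and 1.24 CPM. The receptor Ptch1 stood at 105 and 92.4 CPM and the transducer Smo at 33.6 CPM in both. The target Gli1 had 6 and 17 UMIs, and Gli3, mostly a repressor, stood at 19.8 and 29.3 CPM (log2 fold -0.57, -1.10 to -0.05). Both ligands stood well above the pooled rest, but not above every endoderm group, as Ihh in cells high in visceral endoderm genes and Shh in tdTom+ cells with Pax9 were near or above their level in members. Within the class with neither Cdx2 nor Nepn, Shh had 47.8 CPM in the tdTom+ and 20.8 CPM in the tdTom- cells (1.20, 0.32 to 2.18). Of the 47 tdTom+ UMIs 13 were in 1 cell, and a Shh UMI was read in 33.9% and 29.5% of these cells.

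Of 18 BMP and Nodal genes 9 were assessed and none was called, again near the share over all assessed genes (0.284% higher and 1.13% lower). The BMP targets Id1 and Id2 stood at 629 and 462 CPM in tdTom+ and at 598 and 529 CPM in tdTom- members, and the ligand Bmp4 at 46.7 and 55.4 CPM. The ligand Nodal had 0 and 4 UMIs. Of 13 retinoic acid genes 8 were assessed, and the receptor Rarb alone was called higher, against 0.284% of all assessed genes, at 37.4 and 18.7 CPM (log2 fold 1.00, 0.51 to 1.5), with a log2 fold of -0.15 in the rest. Its log2 fold was 0.43 when unspliced UMIs were added, 0.88 without the host cells that held a Rhox5 or Trap1a UMI, 0.94 as a mean over cells and 0.99 with a visceral endoderm limit of 1%, so the call rests on the 2-fold edge. Rarg, another receptor, stood at 19.8 and 34.2 CPM (-0.79), and Cyp26a1 at 82.4 and 120 CPM (-0.54). Of 3 genes of the apelin receptor system only Apela had enough UMIs. All 6 glutathione peroxidases were assessed with none called, also near the share over all assessed genes.

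Rhox5 and Trap1a, X-linked genes known from extraembryonic tissue, marked a set of host cells among the members. A UMI of either gene was read in 41 tdTom- members, which is 21.1% (15.6 to 27.6), and in 5 tdTom+ members with 1 UMI each. In cardiomyocyte-like tdTom- cells the share was 13.1%, and after thinning the shares were 17.4% and 9.66%, so a single UMI lay close to the background. At 3 UMIs or more there were 29 tdTom- members (14.9%) and 0 of 139 tdTom+ members, with an exact upper limit of 2.62%. Of the tdTom- members 23 had 10 UMIs or more, and the highest had 62. The genes went together, since 29 tdTom- cells held both, 9 held Rhox5 alone and 3 held Trap1a alone. Summed, Rhox5 had 4 UMIs in tdTom+ and 261 in tdTom- members (log2 fold -5.59, and -2.24 in the rest), and Trap1a 1 and 310 (-7.84, -13.15 to -5.35, and -3.85 in the rest). The set was not limited to members, as 145 of 997 other tdTom- cells with at least 5 Epcam UMIs (14.5%) and 6 of 994 tdTom+ ones (0.604%) also reached 3 UMIs, against 1.45% and 0.815% of tdTom- and tdTom+ cells below that Epcam limit. Both genes were high in Epcam-positive cells high in visceral endoderm genes, in either fraction. There Rhox5 stood at 981 CPM in the 3 tdTom+ and 885 CPM in the 39 tdTom- cells, and Trap1a at 473 and 663 CPM. In tdTom- Epcam-positive cells with Pax9, Rhox5 stood at 48.8 and Trap1a at 89.4 CPM, against 81.2 and 96.5 CPM in tdTom- members.

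The promoters of these genes are shown because Rhox5 is a textbook example of a promoter silenced by CpG methylation in the embryo, and Trap1a was read in the same cells. They are RefSeq GRCm38.p6 windows on the plus strand, chrX:37754358-37754657 for Rhox5 and chrX:139333433-139333732 for Trap1a, and capitals mark CpG dinucleotides.
Rhox5: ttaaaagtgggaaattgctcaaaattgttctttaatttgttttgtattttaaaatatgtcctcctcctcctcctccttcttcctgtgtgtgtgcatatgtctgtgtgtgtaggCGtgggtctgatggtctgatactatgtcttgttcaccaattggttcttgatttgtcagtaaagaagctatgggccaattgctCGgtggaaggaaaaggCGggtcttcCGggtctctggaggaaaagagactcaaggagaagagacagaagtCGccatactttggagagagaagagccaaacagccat
Trap1a: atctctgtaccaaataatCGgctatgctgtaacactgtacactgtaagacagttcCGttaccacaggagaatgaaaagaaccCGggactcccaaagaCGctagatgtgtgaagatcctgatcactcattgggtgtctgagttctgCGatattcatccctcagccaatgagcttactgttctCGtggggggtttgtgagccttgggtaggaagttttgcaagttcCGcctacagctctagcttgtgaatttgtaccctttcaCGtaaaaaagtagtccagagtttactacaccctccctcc
The Rhox5 window held 5 CpG and the Trap1a window 8, where the median over 32851 windows was 7, and 43.6% and 54.2% of windows held as few. Methylation was not measured in these libraries.

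Host cells with at least 3 Rhox5 and Trap1a UMIs were set against the 153 without any, as a description. Of 4313 genes, 64 (1.48%) were called higher, Rhox5 and Trap1a among them by construction, and 77 (1.79%) lower. The 29 cells had a median of 12062 UMIs and the 153 cells a median of 15581. Mt1, a metallothionein, stood at 193 against 11.2 CPM, Ctsh, a lysosomal protease, at 209 against 19.97 CPM, and the uroplakin Upk3a at 133 against 22.8 CPM. Hindgut genes did not go one way: Fgf8, at 701 against 157 CPM, and T, at 211 against 66.3 CPM, were called higher, while Cdx2 at 427 against 231 CPM (log2 fold 0.89) and Cdx4 at 147 against 258 CPM (-0.81) were not called. Amn, a protein of absorptive visceral endoderm, had 38 against 5 UMIs, and Apom, an apolipoprotein, stood at 266 against 68.3 CPM. Afp and Apoa1, whose level the rule limited, stood at 71.5 against 14.4 CPM and at 65.6 against 9.58 CPM.

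Other gut genes were lower in the same cells. Shh stood at 1.99 against 72.3 CPM (log2 fold -5.18), Gata6 at 9.93 against 94.6 CPM (-3.25), Foxa1 at 19.9 against 71.9 CPM (-1.85), and Nepn at 113 against 364 CPM (-1.69). The Nepn level of these cells rested on few of them, with 38 UMIs in a single cell and 13 in another. Sox17 stood at 127 against 111 CPM and Ihh at 45.7 against 53.5 CPM. Among genes that chose the members, which show nothing here beyond the rule, Epcam stood at 844 against 931 CPM, Apela at 618 against 576 CPM, Cpn1 at 219 against 192 CPM and Gpx2 at 99.3 against 155 CPM (-0.64, -1.09 to -0.21). Shh and Ihh thus parted in this set, as Ihh was near its level in other host members and Shh was not. The 2 sides also differed in class. In host members, 211 of 261 Rhox5 and 260 of 310 Trap1a UMIs were in the class with Cdx2 and Hox 9 to 13. Gata6 stood at 43.6 CPM in that class and 138 CPM in host cells with neither Cdx2 nor Nepn, and Foxa1 at 40.1 and 92.0 CPM. T stood at 132 and 4.45 CPM and Fgf8 at 376 and 11.9 CPM, while Shh went the other way at 69.0 and 20.8 CPM. The part of class in this contrast was not tested.

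**Figure D5:**
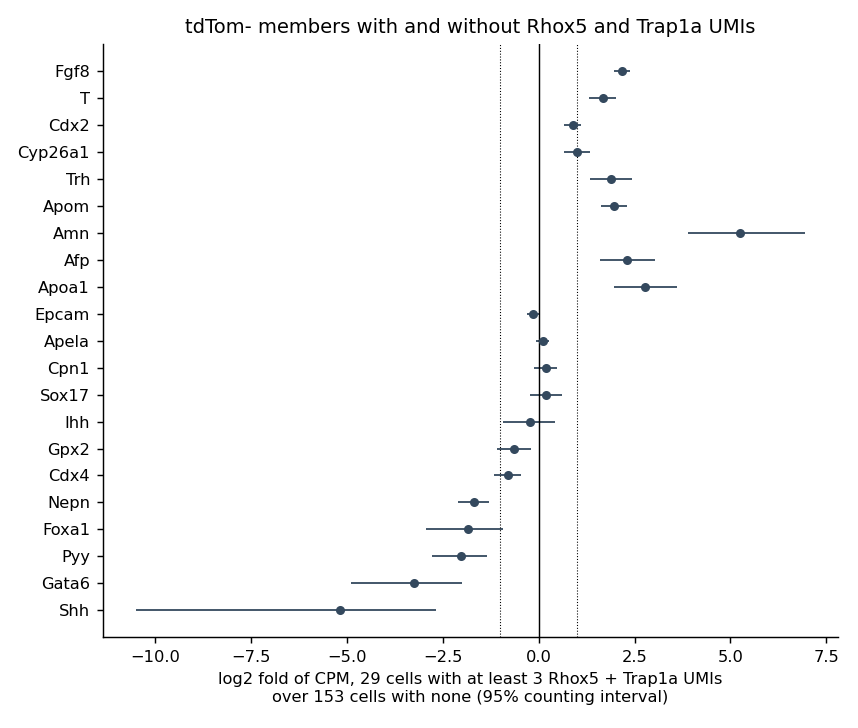
Log2 fold of CPM between the 29 tdTom- members with at least 3 Rhox5 and Trap1a UMIs and the 153 with none, for named genes, with 95% exact counting intervals and dotted lines at 2-fold. Fgf8, T, Apom and Amn lie above 0, Epcam, Apela and Sox17 near 0, and Shh lies furthest below at -5.18.

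Part of the difference between the fractions moved with these host cells. With the 41 host members that held a Rhox5 or Trap1a UMI left out, 39 of 5594 genes were called lower in tdTom+ members instead of 68 of 5992, and 13 were called higher instead of 17. Rhox5 and Trap1a are at 0 in the host by this removal. The log2 fold of Fgf8 went to -0.40 from -1.02 and that of T to -0.48 from -0.85, and Apom went to -1.04 from -1.52. Nepn went to 0.14 from 0.41. Cdx2 kept most of its difference at -0.72, the summed Hox 9 to 13 genes stood at -1.0 with 113 against 226 CPM, and Pyy and Nkx2-3 both stood at 2.68. Among the remaining 153 host members, 68.0% held a Cdx2 UMI and 56.9% a Hox 9 to 13 UMI. Of 16 visceral endoderm genes 3 were assessed. With all members kept, Apom was called lower in tdTom+ members, at 33.2 and 95.5 CPM (-1.52, and -2.86 in the rest), against 1.13% of all assessed genes. The other 2 had log2 folds above 0, 1 of them with an interval above 0, and the median of the 3 was 0.24. Of all 5992 assessed genes, 2717 were above 0 and 510 had an interval above 0. Amn had 7 and 43 UMIs and Apob, the core apolipoprotein of lipid export, 4 and 69. With the 41 host members left out, Amn had 7 and 5 UMIs and Apob 4 and 7.

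Imprinted genes differed between the fractions in both directions, some by much the same in members as in all other cells and some not. Of 25 imprinted genes listed 17 were assessed, 4 were called higher and 4 lower in tdTom+ members, against 0.284% and 1.13% of all assessed genes, and the median log2 fold was 0.45. Peg3, a paternally expressed zinc finger gene, stood at 2279 and 1027 CPM, and Mest at 485 and 244 CPM (0.99, and 1.07 in the rest). Grb10, a growth factor receptor adaptor, had 26 and 1269 UMIs (-5.18, and -5.33 in the rest), with 15 of the 26 in 2 cells and 4.73 and 383 CPM without the 2 highest cells of each library. Igf2r, the receptor that clears Igf2, had log2 folds of -2.18 and -2.20. Phlda2 had 64 and 1461 UMIs (-4.08, and -2.61 in the rest), with 45 of the 64 in 2 cells and 8.16 and 394 CPM without the 2 highest cells of each library. Cdkn1c, a cell cycle inhibitor, had 258 and 4026 UMIs (-3.53, and -6.47 in the rest). Of its 258 UMIs, 238 were in 2 tdTom+ cells, with 169 and 69, and without the 2 highest cells of each library the log2 fold was -7.02. It was read in 11 tdTom+ and 183 tdTom- members.

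Sex-linked, GATA and cell cycle genes completed the comparison. The Y-linked genes Ddx3y and Eif2s3y were called higher in tdTom+ members and Xist lower, out of 7 such genes of which 3 were assessed. Of all assessed genes, 0.284% were called higher and 1.13% lower. Without the host cells that held a Rhox5 or Trap1a UMI, Ddx3y had a log2 fold of 0.89 (0.40 to 1.40), so its call ended. Gata1 had 1 UMI in tdTom+ and 2 in tdTom- members, so its loss cannot be checked in these cells, and among 5 GATA genes the 2 assessed were not called. Of 18 G2/M genes 16 had a log2 fold above 0, 9 had intervals above 0 and none was called, with a median of 0.19, where 2717 and 510 of all 5992 assessed genes were above 0 and had an interval above 0. Of 16 S phase genes 15 were assessed, 6 were above 0 and none was called. The largest log2 fold of the 18 was that of Aurka, a mitotic kinase, at 149 and 107 CPM (0.48).

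Of 9 marker lists of other cell types, the notochord list and, in tdTom+ members, the pharyngeal list were above their level in the pooled rest, and the others were below it. The pharyngeal list holds Pax9, which no member may hold by the rule, and the globin limit of the rule leaves out cells rich in globin RNA. The levels of the pharyngeal and erythroid lists thus follow in part from the choice of cells. The summed foregut list stood at 1225 and 354 CPM against 157 and 199.6 CPM in the rest. Pyy alone gave 982 and 169 CPM of that sum in members, against 26.3 and 9.69 CPM in the rest. The visceral endoderm list stood at 144 and 237 CPM against 70.6 and 158 CPM, and the extraembryonic X-linked list at 8.83 and 194 CPM against 9.71 and 57.7 CPM. Dppa3 of germ cells, Noto of notochord, Pax1 of pharyngeal endoderm, Sox7 of parietal endoderm and Pou5f1 had no UMI in any member. The summed germ cell list of 7 genes had 8 UMIs in tdTom+ and 32 in tdTom- members, which is 3.36 and 9.96 CPM against 9.66 and 12.1 CPM in the rest. The surface ectoderm list stood at 12.2 and 14 CPM against 26.9 and 29.4 CPM in the rest, the endothelial list at 2.94 and 14.9 CPM against 106 and 84.04 CPM, and the erythroid list at 21.4 and 73.8 CPM against 437 and 1500 CPM in the rest, with the globins Hbb-y, Hba-x and Hbb-bh1 lower in tdTom+ members (log2 folds -3.14, -2.83 and -1.45, and -2.99, -3.15 and -1.35 in the rest). The mesoderm list stood at 78.6 and 95.5 CPM against 436 and 378 CPM in the rest, and Twist1 in it was called lower with 26 and 80 UMIs. The neural list stood at 56.7 and 94.6 CPM against 100.4 and 191 CPM, and its called gene was Sox2. The notochord list stood at 108 and 153 CPM against 36.5 and 40.9 CPM in the rest and was mostly Shh and T, which gut cells also express. The extraembryonic ectoderm list stood at 76.5 and 84.95 CPM against 155 and 138 CPM and had 2 genes assessed, Gata3 and Hand1, and neither was called. The pharyngeal list stood at 97.5 and 25.2 CPM against 37.8 and 28.9 CPM in the rest, and its called gene was Nkx2-3. The part of these other types in the differences above was not tested.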

How the data were processed

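Droplet single-cell RNA-seq was made from 1 tdTom+ and 1 tdTom- library. Per the study's methods, the authors aligned reads with Cell Ranger 3.0.2 to mm10, called cells with emptyDrops and split reads into spliced and unspliced with velocyto. The deposited matrices hold raw spliced and unspliced UMI counts per gene and cell, and the deposited cell table gives mitochondrial reads as a percent. Every deposited barcode was kept. There were 0 per-sample columns left unused.

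Members, the 28 gene lists and the contrasts were chosen with earlier results of these data known, and the cardiomyocyte-like background (at least 10 Myl7 and 5 Tnnt2 UMIs), the 4 classes and the genes named from the Nepn and Rhox5 contrasts were chosen after values were seen. The named genes between fractions were the 10 with the largest log2 fold in each direction among genes with at least 100 UMIs and an interval that excludes 0, and over the rest the 20 with the largest lower fold.

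Spliced counts were summed per group and scaled to 1e+06 (CPM). A gene was called at 2-fold or more with a 95% exact conditional interval that excludes 0, and a count of 0 was set to a floor of 3. Shares have Clopper-Pearson intervals. Intervals and floors cover counting error only. Free RNA can add UMIs to any droplet, and overlapping or near-identical genes may share reads. Scrublet in scanpy 1.11.5 (expected rate 0.05) marked doublets. Python 3.11.15, numpy 2.4.6, scipy 1.17.1 and pandas 2.3.3 were used, and the fold and share code was tested on simulated data. Promoter windows came from RefSeq GRCm38.p6.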

Additional observations from a re-analysis of the deposited data

How the results depend on the processing

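No paired analysis was possible because each fraction is 1 library. Asking for 10 Epcam UMIs made members 1.19% of tdTom+ and 1.60% of tdTom- barcodes, asking for a sum of 10 for Apela, Cpn1 and Gpx2 made them 0.958% and 1.47%, and applying the rule to thinned cells made them 1.36% of tdTom+ and 1.61% of tdTom- cells. A minimum of 20 UMIs gave 64 genes higher and 243 lower in tdTom+ members and 752 genes above the rest. Leaving out host cells with a Rhox5 or Trap1a UMI, an alternative chosen after seeing the data, gave 39 lower genes. With the sum of 10, a limit added to the class shares after seeing the data, the class with Cdx2 and Hox 9 to 13 held 43.0% of tdTom+ and 69.9% of tdTom- members. Over the alternatives run, the log2 fold of Cdx2 lay between -0.98 and -0.72, that of the summed Hox 9 to 13 genes between -1.03 and -0.98, Pyy between 2.40 and 2.68, Nkx2-3 between 2.03 and 2.68, and Rarb between 0.43 and 1.06. Higher genes were 19.5% to 25% of called genes under the scalings and filters run. Depth limits genes under 100 UMIs over all members, such as Hnf4a, Gli1 and Nodal, and the spread between libraries is unknown.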
